A study of Mus musculus with 6 samples.

Results

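The genes examined were 8 members of mevalonate and cholesterol synthesis: the enzymes Hmgcs1, Idi1, Fdps, Fdft1, Sqle and Lss, and the regulators Srebf2 and Insig1. They were taken by gene symbol from the deposited table of 29199 genes, in which all 8 had a row, and all 8 passed the filter on low counts. Regulatory T cells (Treg) were recovered from irradiated C57BL/6 hosts (in the methods, C57BL/6 J or CD45.1+ B6) given a bone marrow graft of mixed C57BL/6 and B6D2F1 origin, depleted of T and NK cells. Expanded Treg had been injected together with naive conventional CD4 T cells (Tconv), and 3 weeks after the graft Treg were sorted again from the spleen and their total RNA was sequenced. The comparison was between 3 libraries of Treg recovered beside WT Tconv and 3 libraries of Treg recovered beside HP1a KO Tconv, and asked whether the genotype of the neighbouring Tconv left a trace in Treg that were themselves WT. All Treg carried the Foxp3-Thy1.1 reporter and had been expanded with anti-CD3/CD28 beads, IL-2 and TGFb before transfer. HP1a was deleted in the germline of the Tconv donors by a CMV-driven Cre, on a mixed genetic background, so the deletion was not restricted to T cells, and control Tconv came from littermates. The study's methods give an age range for mice of all experiments, and the sources used here do not tie an age to a library or say whether each library came from 1 animal, so p-values measure the spread between these libraries.

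Cells make cholesterol from acetyl-CoA. The mevalonate pathway builds isoprenoid units, which are joined into farnesyl diphosphate, and this serves both for protein prenylation and for sterols. Squalene synthase commits farnesyl diphosphate to sterols, and squalene is then oxidised and cyclised to lanosterol. SREBP2, encoded by Srebf2, is held in the endoplasmic reticulum by SCAP and the INSIG proteins when sterols are plentiful. When sterols fall it travels to the Golgi, is cleaved, and activates most genes of the pathway, among them INSIG1, its own brake. In Treg, mevalonate metabolism is known to support proliferation and suppressive function.

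SREBP2 acts on promoters together with the factors NF-Y and Sp1, so the promoters of 1 enzyme and of both regulators are shown. The RefSeq table held promoters of 5 of the 8 members, and Fdps, Fdft1 and Sqle had no entry. Each window runs from 250 bases before to 50 bases after the start of the gene, 5′ to 3′ on the strand of the gene, in build GRCm38.p6. Capitals mark every match, on either strand, to the sterol regulatory element of letters TCACNCCAC, the CCAAT box, the GC box of letters GGGCGG and the E-box of letters CACGTG. No matches overlapped in the windows printed.
Hmgcs1 (chr13:119690101-119690400, plus strand): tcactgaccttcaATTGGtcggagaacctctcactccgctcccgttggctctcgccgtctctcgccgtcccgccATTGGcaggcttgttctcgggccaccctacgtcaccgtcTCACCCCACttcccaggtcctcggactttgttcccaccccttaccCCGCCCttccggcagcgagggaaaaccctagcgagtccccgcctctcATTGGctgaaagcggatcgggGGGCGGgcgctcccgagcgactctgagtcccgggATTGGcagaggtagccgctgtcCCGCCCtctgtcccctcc
Srebf2 (chr15:82147019-82147318, plus strand): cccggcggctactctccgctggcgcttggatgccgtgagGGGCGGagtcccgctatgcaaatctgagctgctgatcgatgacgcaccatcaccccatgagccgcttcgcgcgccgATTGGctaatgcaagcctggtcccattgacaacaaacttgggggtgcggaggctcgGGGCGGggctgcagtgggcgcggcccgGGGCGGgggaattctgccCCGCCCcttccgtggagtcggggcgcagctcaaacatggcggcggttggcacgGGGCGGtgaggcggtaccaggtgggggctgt
Insig1 (chr5:28071162-28071461, plus strand): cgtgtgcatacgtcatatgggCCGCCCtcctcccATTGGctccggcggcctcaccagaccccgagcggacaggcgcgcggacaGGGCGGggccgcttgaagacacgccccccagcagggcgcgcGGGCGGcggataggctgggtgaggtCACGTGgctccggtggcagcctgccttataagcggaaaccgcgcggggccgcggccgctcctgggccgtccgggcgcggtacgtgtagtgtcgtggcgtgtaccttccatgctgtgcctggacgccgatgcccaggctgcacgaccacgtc

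The sterol regulatory element was matched in Hmgcs1 alone among the 5 members, from base -137 to base -129 relative to the start, and in 1.24% of 32851 promoters. A CCAAT box was matched in all 5 members, 4 times in Hmgcs1 and once in Srebf2 and in Insig1, and in 37.4% of all promoters. A GC box was matched in all 5, from 1 time in Idi1 to 5 times in Srebf2, and in 35.7% of all promoters. The E-box was matched once, in Insig1, and in 7.15% of all promoters. A match describes letters in these windows and is not a binding site. Only these exact letters were searched, so a variant of an element would be left unmarked, and a missing match does not show that a promoter lacks the element.

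All 8 listed T cell and Treg markers were detected, Foxp3 included, and replicate 3 of Treg with WT Tconv and replicate 2 of Treg with HP1a KO Tconv stood apart from the rest. Totals ranged from 87421755 to 119078882 counts. The summed level of 8 T cell and Treg markers was 5107 to 5902 CPM (counts per 1e6 of the library total) with WT Tconv and 5133 to 5453 CPM with HP1a KO Tconv. All 7 red cell markers summed to 6155 CPM in replicate 3 with WT Tconv, while the remaining libraries were at 393 to 736 CPM. All 8 neutrophil markers summed to 1847 CPM there, against 42.4 to 229.9 CPM elsewhere, and all 6 macrophage markers to 177 CPM, against 12.7 to 47.2 CPM. Foxp3 was lowest, at 158 CPM, in replicate 2 with HP1a KO Tconv, where the remaining libraries had 199.6 to 254 CPM, and Il2ra was lowest there as well, at 124 CPM. Cd3e and Cd4 were lowest in that library too, at 151 and 707 CPM, while Cd3d and Trac were lowest in replicate 3 with WT Tconv. Ikzf2 was not low there, at 1873 CPM, where the group's other libraries had 1613 and 1484 CPM. Ctla4 was at 1047 CPM there, where the group's other libraries had 1029 and 806 CPM. The libraries with WT Tconv were all higher for Ctla4, at 1093 to 1322 CPM.

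Between the groups, 7 of the 8 members had a log2 fold change (LFC, HP1a KO Tconv over WT Tconv) above 0, that is, a higher mean with HP1a KO Tconv, against 48.5% of the 18321 genes tested. Insig1 was the exception. All differences were small, from -0.28 for Insig1 to 0.30 for Fdps on the log2 scale. With the quasi-likelihood test of edgeR, 0 members had an adjusted p-value under 0.05, as did 0% of all genes tested. At an unadjusted p-value under 0.05, 2 members were higher with HP1a KO Tconv (Fdps and Fdft1), where 6.98% of all genes were, and 1 was lower (Insig1), where 7.52% were. The groups did not overlap for Fdps, Fdft1 and Srebf2 on the higher side (11.5% of all genes) and for Insig1 on the lower side (11.6% of all genes). Of all genes tested, 2656 had an unadjusted p-value under 0.05 in edgeR. With DESeq2, 0 members had an adjusted p-value under 0.05, where 4.35% of the genes given an adjusted p-value did. DESeq2 was also the tool of the study, whose methods further ask for an absolute log2 fold change above 1, a limit not applied to the calls here and not reached by any member. The median log2 fold change was 0.14 over the 8 members and -0.01 over all genes tested. The members' median was 0.09 when replicate 3 with WT Tconv, the library with the highest red cell and neutrophil markers, was left out, and 0.23 when replicate 1 with WT Tconv was.

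**Figure D1:**
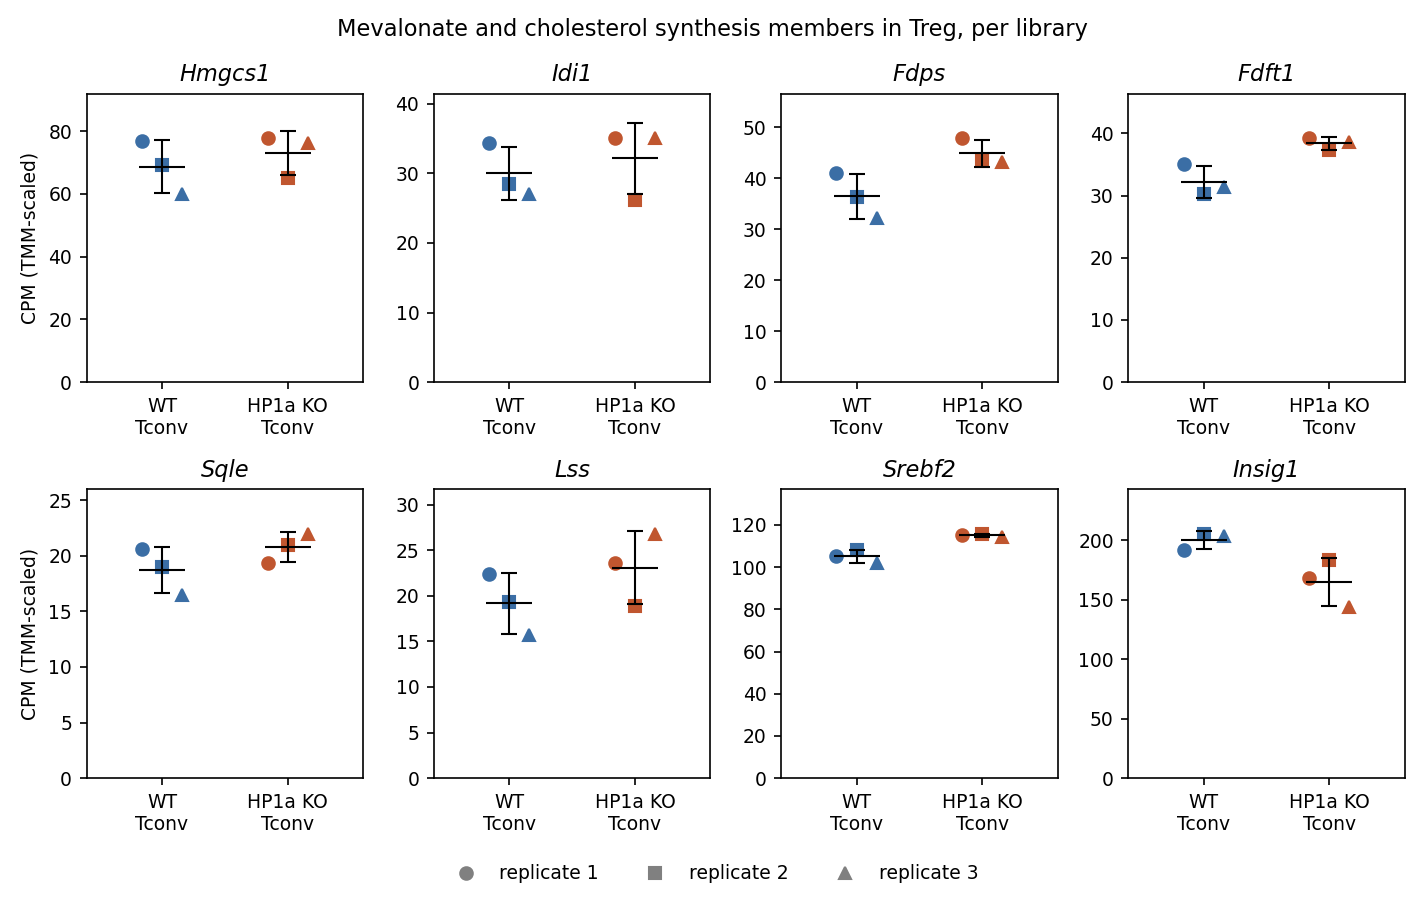
Level of each of the 8 members in each Treg library, in CPM scaled by TMM on axes that start at 0. Points are libraries with the replicate number as their shape, horizontal bars are group means and whiskers are 1 SD (n = 3). The groups do not overlap for Fdps, Fdft1, Srebf2 and Insig1, and overlap for the other 4 genes.

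The levels below are CPM scaled by TMM, which adjusts library totals for differences in composition, unless they are given per kb. Hmgcs1 encodes the cytosolic synthase that makes HMG-CoA, the entry to the mevalonate pathway, and lies on the plus strand at chr13:120151915-120170470 (ENSMUSG00000093930, protein coding, as are all members; GRCm39 here and for the genes that follow). It was at 76.8, 69.3 and 60.1 CPM in replicates 1, 2 and 3 with WT Tconv, and at 78.0, 64.95 and 76.1 CPM with HP1a KO Tconv. The groups overlapped widely, with the lowest value in replicate 3 with WT Tconv. Its LFC was 0.09 (95% interval -0.16 to 0.33) and its adjusted p-value (edgeR) was 0.742. Without replicate 3 of Treg with WT Tconv it was -0.00. A stretch of 396 bases of the Hmgcs1 transcript is 99.5% identical to Baz1a, which had 24358 to 39238 counts per library, so reads there could be assigned to either gene.

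Idi1 encodes the isomerase that interconverts the isoprenoid building blocks (chr13:8935537-8942487, plus strand, ENSMUSG00000058258). It was at 34.3, 28.5 and 27.1 CPM with WT Tconv and at 35.1, 26.2 and 35.1 CPM with HP1a KO Tconv. The lowest of all 6 values was replicate 2 with HP1a KO Tconv, and the groups overlapped. Its LFC was 0.10 (95% interval -0.22 to 0.42) and its adjusted p-value (edgeR) was 0.770, and it was 0.23 without that library and 0.03 when replicate 3 with WT Tconv was left out. Pseudogenes Idi1-ps1 and Idi1-ps2 match 684 and 681 bases of its transcript at 100% and 97.7% identity, and neither has a row in the table.

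Fdps encodes farnesyl diphosphate synthase, at the fork between prenylation and sterols (chr3:89000888-89019213, minus strand, ENSMUSG00000059743). It was at 40.9, 36.3 and 32.2 CPM with WT Tconv and at 48.0, 43.4 and 43.1 CPM with HP1a KO Tconv. Every library with HP1a KO Tconv lay above every library with WT Tconv. Means were 36.4 CPM ± 4.38 (SD, n = 3) and 44.8 CPM ± 2.71 (SD, n = 3), 23.0% higher with HP1a KO Tconv. Its LFC was 0.30 (SE 0.0990) with a 95% interval of 0.07 to 0.53, and the edgeR adjusted p-value was 0.247 (unadjusted 0.0162). Over the alternatives the LFC ranged from 0.22, when replicate 3 with WT Tconv was left out, to 0.40, and adjusted p-values from 0.121 to 0.443. Processed pseudogenes share most of the Fdps transcript, the closest being Gm3571 at 98.9% identity over 1062 bases, but Gm3571 had only 25 to 47 counts per library against 3502 to 4360 for Fdps.

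Fdft1 encodes squalene synthase, which commits farnesyl diphosphate to sterols (chr14:63382189-63417027, minus strand, ENSMUSG00000021273). It was at 35.1, 30.2 and 31.4 CPM with WT Tconv and at 39.4, 37.3 and 38.6 CPM with HP1a KO Tconv. The groups did not overlap. Means were 32.2 CPM ± 2.54 (SD, n = 3) and 38.4 CPM ± 1.02 (SD, n = 3), 19.3% higher with HP1a KO Tconv. Its LFC was 0.25 (SE 0.0786) with a 95% interval of 0.07 to 0.44, and its adjusted p-value (edgeR) was 0.232 (unadjusted 0.0114), and it ranged from 0.22 to 0.33 over the alternatives. Fdft1 shares 24.8% of its exonic bases with Ctsb on the opposite strand, a gene with 33708 to 49159 counts per library. The library kit marks strand, but the sources used here do not state that the counting used it, so the share of Ctsb reads in the Fdft1 count is uncertain.

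Sqle encodes squalene monooxygenase, a rate-limiting step of the sterol branch (chr15:59186869-59203043, plus strand, ENSMUSG00000022351). It was at 20.6, 19.0 and 16.5 CPM with WT Tconv and at 19.3, 20.9 and 21.996 CPM with HP1a KO Tconv, and the groups overlapped. Its LFC was 0.15 (95% interval -0.09 to 0.39) and its adjusted p-value (edgeR) was 0.548. Without replicate 3 of Treg with WT Tconv, its lowest library, it was 0.07, and 0.24 when replicate 1 of that group was left out. Sqle shares 5.29% of its exonic bases with Washc5 on the opposite strand, a gene with 5051 to 6153 counts per library against 1757 to 2091 for Sqle. A matching stretch covers 16.7% of the canonical Sqle transcript, so the share of Washc5 reads in the Sqle count is uncertain.

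Lss encodes lanosterol synthase, which closes the sterol rings (chr10:76367298-76392976, plus strand, ENSMUSG00000033105). It was at 22.4, 19.4 and 15.7 CPM with WT Tconv and at 23.6, 18.8 and 26.8 CPM with HP1a KO Tconv. By the width of its interval it was the least precisely measured member, and replicate 2 with HP1a KO Tconv lay among the libraries with WT Tconv. Its LFC was 0.27 (95% interval -0.12 to 0.66) and its adjusted p-value (edgeR) was 0.508. It was 0.14 when replicate 3 with WT Tconv was left out and 0.41 without replicate 1 of that group.

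The 6 enzymes all had higher means with HP1a KO Tconv, but differed in how far the groups separated. Their summed level was 230.04, 203 and 183 CPM with WT Tconv and 243, 212 and 242 CPM with HP1a KO Tconv. The groups overlapped, since replicate 1 with WT Tconv was above replicate 2 with HP1a KO Tconv. In these bulk samples a larger share of cells using the pathway and more RNA per cell cannot be told apart. Replicate 3 with WT Tconv was the lowest library for 4 of the 6 enzymes and was also the library with the highest red cell and neutrophil markers, whose part in these levels was not tested.

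Srebf2 encodes SREBP2, the main transcription factor of the pathway, whose promoter is printed above with 5 GC boxes (chr15:82031382-82093201, plus strand, ENSMUSG00000022463). It was at 105, 108 and 102 CPM with WT Tconv and at 115, 116 and 115 CPM with HP1a KO Tconv. The groups did not overlap, and the 3 libraries with HP1a KO Tconv lay close together. Means were 105 CPM ± 3.13 (SD, n = 3) and 115 CPM ± 0.707 (SD, n = 3), 9.55% higher with HP1a KO Tconv. Its LFC was 0.13 (95% interval -0.00 to 0.27) and its adjusted p-value (edgeR) was 0.361 (unadjusted 0.0561), and it ranged from 0.11 to 0.17 over the alternatives.

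Insig1 encodes the sterol-sensing protein that retains SCAP and SREBP2 in the endoplasmic reticulum, and was the member that went the other way (chr5:28276315-28283668, plus strand, ENSMUSG00000045294). It was at 192, 206 and 204 CPM with WT Tconv and at 168, 183 and 144 CPM with HP1a KO Tconv. Every library with HP1a KO Tconv lay below every library with WT Tconv, and replicate 3 with HP1a KO Tconv was the lowest. Means were 200.3 CPM ± 7.46 (SD, n = 3) and 165 CPM ± 19.9 (SD, n = 3), 17.6% lower with HP1a KO Tconv. Its LFC was -0.28 (SE 0.0929) with a 95% interval of -0.49 to -0.07, and the edgeR adjusted p-value was 0.247 (unadjusted 0.0162). Without replicate 3 of Treg with HP1a KO Tconv it was -0.19, and without replicate 2 of that group -0.36, with adjusted p-values from 0.0943 to 0.477 over all alternatives. Its paralogue Insig2 was at 12.7, 13.6 and 12.5 CPM with WT Tconv and at 13.0, 8.21 and 13.6 CPM with HP1a KO Tconv, an LFC of -0.15 that became 0.04 without replicate 2 of Treg with HP1a KO Tconv.

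Ratios between members within a library need no scaling between libraries. Insig1 had 1.82, 1.90 and 2.00 counts per count of Srebf2 with WT Tconv, and 1.46, 1.58 and 1.25 with HP1a KO Tconv. These ratios did not overlap, and their means were 1.91 ± 0.0897 (SD, n = 3) and 1.43 ± 0.164 (SD, n = 3). Against the 6 enzymes together, Insig1 had 0.834, 1.01 and 1.11 counts per count with WT Tconv, and 0.691, 0.865 and 0.594 with HP1a KO Tconv. Here the groups overlapped, through replicate 1 with WT Tconv and replicate 2 with HP1a KO Tconv. The 6 enzymes had 2.18, 1.87 and 1.80 counts per count of Srebf2 with WT Tconv and 2.11, 1.83 and 2.11 with HP1a KO Tconv, which overlapped. These ratios combine values already described and were not tested. Insig1 was lower and Srebf2 higher in every library with HP1a KO Tconv, so the ratio of Insig1 to Srebf2 had to separate and adds no evidence.

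**Figure D2:**
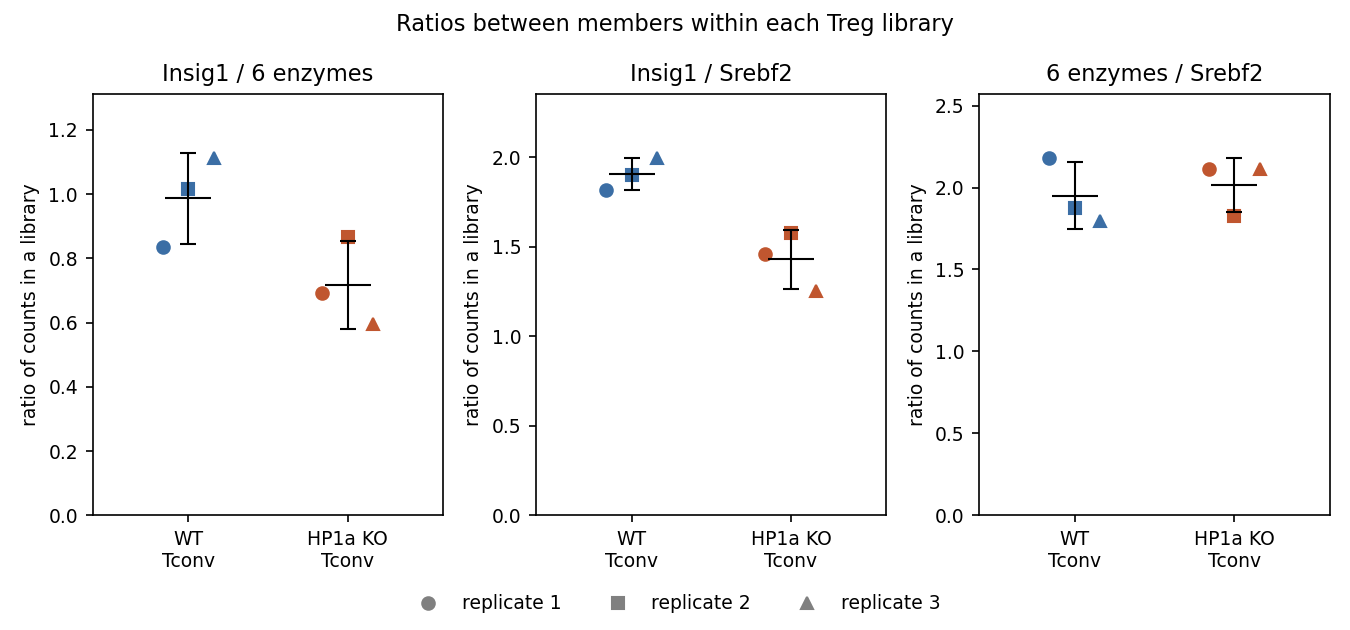
Ratios of counts between members within each library, for Insig1 over the 6 enzymes, Insig1 over Srebf2 and the 6 enzymes over Srebf2. Points are libraries, bars are means and whiskers 1 SD (n = 3). The Insig1 to Srebf2 ratio is 1.82 to 2.00 with WT Tconv against 1.25 to 1.58 with HP1a KO Tconv. Its separation follows from the levels of Insig1 and Srebf2, which each separate the groups in opposite directions.

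Compared per kb of the canonical transcript, levels differed between members by more than they did between groups. Insig1 was the highest, at 73.1 ± 2.72 CPM per kb (SD, n = 3) beside WT Tconv and 60.2 ± 7.26 with HP1a KO Tconv. Fdps followed at 27.9 ± 3.35 and 34.3 ± 2.08 CPM per kb, then Srebf2 at 20.7 ± 0.617 and 22.7 ± 0.139, and Hmgcs1 at 16.8 ± 2.04 and 17.8 ± 1.72. Idi1 and Fdft1 came next, at means over the 6 libraries of 12.0 and 10.2 CPM per kb, and were the one pair of neighbours whose ranges overlapped, with Idi1 above Fdft1 in 5 of the 6 libraries. Sqle was at 7.03 CPM per kb over the 6 libraries and Lss was the lowest at 3.31. The order depends on transcript lengths from GENCODE, since the lengths used by the authors were not part of the table.

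Across the 6 libraries the enzymes were positively correlated with each other. Pearson correlations of log2 CPM between pairs of enzymes ranged from 0.47 to 0.93 over 15 pairs, with a median of 0.73. Hmgcs1, Idi1 and Lss formed the closest trio, with correlations of 0.89 to 0.93, and Fdps and Fdft1 correlated within that range, at 0.91. Insig1 correlated negatively with all other 7 members, from -0.83 with Lss to -0.58 with Hmgcs1. Each correlation rests on 6 libraries that share their normalization and group difference, so it is a description. The genes whose log2 CPM was most like the mean standardised profile of the 8 members, among 8840 other genes with a mean of at least 10 CPM, were Nvl, Zfp799, Mon1b, Ankrd40 and Mrps15, with correlations of 0.984 to 0.997. These are the highest of 8840 correlations over 6 libraries, so part of their height comes from the selection.

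A further list of 5 mevalonate pathway genes, which does not hold every step, was read from the same fit. Of these, 4 had a higher mean with HP1a KO Tconv, and the groups did not overlap for any of those 4 (Acat2, Mvk, Pmvk and Mvd; 11.5% of all genes tested were higher without overlap), while 0 passed the edgeR threshold. The median LFC was 0.20, against -0.01 over all genes tested. Mvd encodes mevalonate diphosphate decarboxylase, and was at 16.1, 13.8 and 13.1 CPM with WT Tconv and at 18.7, 20.3 and 17.7 CPM with HP1a KO Tconv. Mvd shares 20.5% of its exonic bases with the lncRNA Gm51557 on the opposite strand. Its LFC was 0.40 with a 95% interval of 0.15 to 0.65, and the adjusted p-value was 0.209 from edgeR but 0.0423 from DESeq2. Mvk, the mevalonate kinase, was at 7.06 CPM ± 0.376 (SD, n = 3) beside WT Tconv and 8.72 CPM ± 0.474 (SD, n = 3) with HP1a KO Tconv, an LFC of 0.30 and an adjusted p-value (edgeR) of 0.270. Ggps1, which makes geranylgeranyl diphosphate for prenylation, had an LFC of -0.01 (95% interval -0.19 to 0.17) and an adjusted p-value (edgeR) of 0.960, and was above 0 when libraries were scaled by total counts.

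Of 10 genes that carry lanosterol to cholesterol, 8 had an LFC above 0 and 0 passed in edgeR, with a median of 0.07. Msmo1, the methylsterol monooxygenase, had an LFC of 0.20 and an adjusted p-value (edgeR) of 0.401. Cyp51, the lanosterol demethylase, went the other way with non-overlapping groups, at 95.3, 86.4 and 85.7 CPM with WT Tconv and 85.6, 81.0 and 77.3 CPM with HP1a KO Tconv, an LFC of -0.13 and an adjusted p-value (edgeR) of 0.452. When replicate 1 with WT Tconv was left out, this LFC was -0.07. Cyp51 shares 21.1% of its exonic bases with Akap9 on the opposite strand, which had 10255 to 18563 counts per library, so its count is uncertain. Hsd17b7 had an LFC of -0.13 and an adjusted p-value (edgeR) of 0.690.

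**Figure D3:**
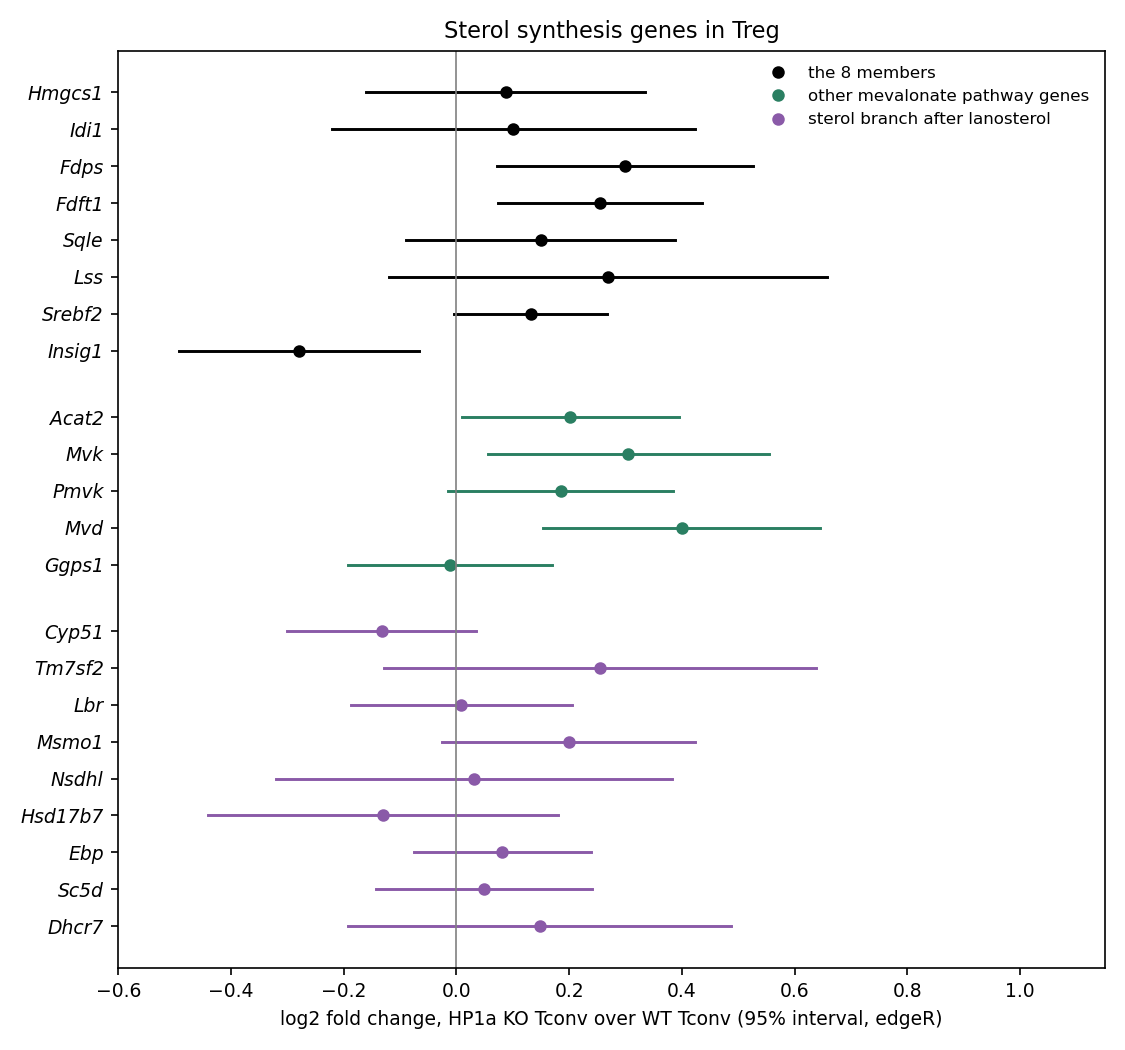
Log2 fold change of the 8 members, 5 other mevalonate pathway genes and 9 of the 10 listed genes of the sterol branch (1 is not shown), HP1a KO Tconv over WT Tconv, with 95% intervals from edgeR (n = 3 libraries per group). Insig1 lies to the left of 0 with its interval, Fdps, Fdft1, Acat2, Mvk and Mvd to the right, and the intervals of Hmgcs1, Idi1, Sqle, Lss and Srebf2 include 0.

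Genes that process SREBP and sense sterols showed no common direction. Of 9 listed, 4 had an LFC above 0, 0 passed in edgeR and the median was -0.01. Scap, the escort of SREBP that Insig1 retains, was at 69.9, 70.8 and 72.4 CPM with WT Tconv and at 83.6, 77.9 and 88.5 CPM with HP1a KO Tconv, without overlap. Its LFC was 0.23 (95% interval 0.07 to 0.39) and its adjusted p-value (edgeR) was 0.229. Mbtps1, the first of the proteases that cleave SREBP, had an LFC of 0.09 and an adjusted p-value (edgeR) of 0.526. Rnf139, a ubiquitin ligase of the sterol response, had an LFC of -0.07 and an adjusted p-value (edgeR) of 0.699, and shares 66.3% of its exonic bases with Tatdn1 on the opposite strand.

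Lists further from synthesis stayed near the median of all genes. Of 10 genes that use isoprenoids 6 had an LFC above 0, with a median of 0.00. Nus1, a subunit of the enzyme that makes dolichol, was at 67.0, 71.8 and 69.6 CPM with WT Tconv and at 62.9, 39.7 and 59.9 CPM with HP1a KO Tconv. The groups did not overlap, and replicate 2 with HP1a KO Tconv was the lowest. The LFC of -0.36 had an edgeR adjusted p-value of 0.394, and was -0.18 when that library was left out. Rabggtb, Coq2 and Pdss2 had LFCs of -0.18, 0.16 and 0.19, and, from edgeR, adjusted p-values of 0.462, 0.506 and 0.531.

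Of 9 listed genes of the oxysterol receptor LXR and of cholesterol export 7 were tested, and 3 of them had an LFC above 0, with a median of -0.05. Abca1, a cholesterol exporter, had an LFC of -0.14 (95% interval -0.56 to 0.28), Nr1h2, which encodes LXRβ, had -0.05 (95% interval -0.21 to 0.10), and Mylip had 0.04. Nr1h3, which encodes LXRα, was near 1 CPM and had 0.31, which became 0.65 when replicate 3 with WT Tconv was left out and 0.19 or 0.18 when replicate 1 or 2 of that group was. Their edgeR adjusted p-values were 0.647 to 0.843. Of 15 genes of uptake, storage and transport 14 were tested, and 6 had an LFC above 0, with a median of -0.01. Stard3, which tethers late endosomes to the endoplasmic reticulum for sterol transfer, was at 37.5, 37.2 and 35.9 CPM with WT Tconv and at 40.5, 52.0 and 44.0 CPM with HP1a KO Tconv, an LFC of 0.30 and an adjusted p-value (edgeR) of 0.241. Osbp, Gramd1c and Scarb1 had LFCs of 0.12, -0.16 and -0.26, and, from edgeR, adjusted p-values of 0.431, 0.552 and 0.751. Scarb1 was at 9.73 CPM in replicate 3 with WT Tconv while the remaining libraries were at 3.99 to 5.75 CPM, and its LFC was 0.21 without that library.

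Fatty acid synthesis, the branch more tied to SREBP1, held 10 genes, 6 with an LFC above 0, and their median was 0.03. Acaca, the acetyl-CoA carboxylase of the cytosol, was at 35.9, 33.9 and 33.8 CPM with WT Tconv and at 43.2, 39.3 and 48.3 CPM with HP1a KO Tconv. Its LFC was 0.34 (95% interval 0.13 to 0.54) and the adjusted p-value was 0.209 from edgeR but 0.0477 from DESeq2. A pseudogene, Gm5182, shares 6118 bases of its transcript at 99.2% identity and had 197 to 271 counts per library against a mean of 3800.3 for Acaca. Acss2, which makes acetyl-CoA from acetate, had an LFC of 0.19 and an adjusted p-value (edgeR) of 0.326. Scd1 and Fads2, desaturases, had LFCs of -2.53 and -1.77 and, from edgeR, adjusted p-values of 0.436 and 0.573, which rested on replicate 3 with WT Tconv, at 3.79 and 4.60 CPM. In the other libraries Scd1 was at 0.140 to 0.342 CPM and Fads2 at 0.227 to 1.04 CPM.

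**Figure D4:**
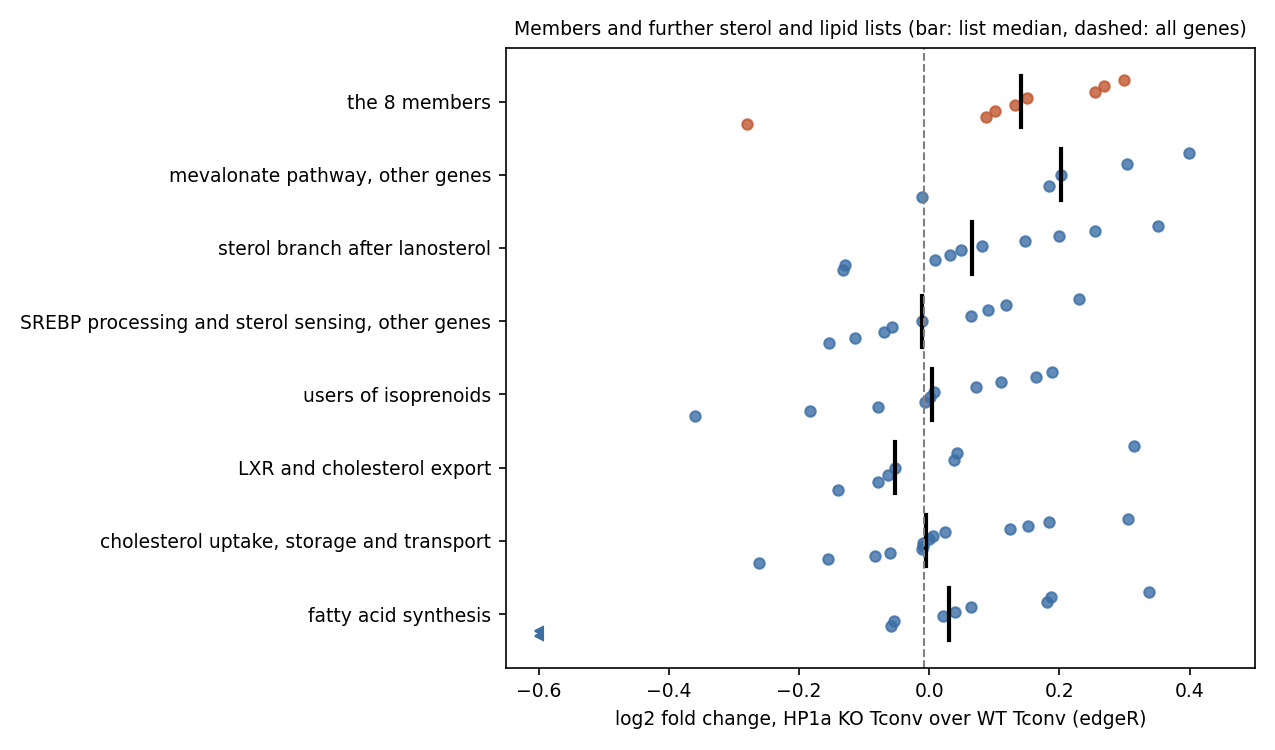
Log2 fold change of each tested gene in the 8 members and in 7 further lists, HP1a KO Tconv over WT Tconv. Points are genes, thick bars list medians, the dashed line the median of all genes at -0.01, and arrowheads at the left edge are Scd1 and Fads2, at -2.53 and -1.77. The members and the other mevalonate pathway genes have the highest medians, 0.14 and 0.20.

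Over the 7 further lists 65 of 68 genes were tested and 0 passed in edgeR. At an unadjusted p-value under 0.05, 8 of them were higher with HP1a KO Tconv, against 6.98% of all genes tested, and 0 were lower, against 7.52%. The groups did not overlap for 14, of which 11 were higher (11.5% of all genes tested) and 3 lower (11.6%) with HP1a KO Tconv, a share in all close to that of all genes. DESeq2 gave 2 of the 65 an adjusted p-value under 0.05, Mvd and Acaca, both with an absolute LFC under 1, and 4 of the 65 no adjusted p-value. Of the 12097 genes to which it gave one, 4.35% were under 0.05.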

How the data were processed

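Total RNA of sorted Treg was measured in 6 libraries, prepared with a stranded total RNA kit. Reads were trimmed by the authors, placed on GRCm39 by STAR with Ensembl gene models, and quantified by Salmon. What was deposited is a table of estimated counts by gene without normalization, already whole and used without rounding. Salmon shares ambiguous reads between similar genes by a model. Genes without a symbol were kept under their identifiers.

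The whole table was fitted with the quasi-likelihood test of edgeR 4.0.16 (glmQLFit, robust) in R 4.3.3, with TMM scaling, the filterByExpr filter (18321 genes kept) and group as the sole term. P-values were adjusted over all genes kept by Benjamini-Hochberg, with a threshold of 0.05. Standard errors are the size of a log2 fold change divided by the root of its F value. CPM is the count over the TMM-scaled total times 1e6, and marker sums use the unscaled total. Log2 CPM for correlations used an offset of 0.5. Alternatives were DESeq2 1.42.0, limma-voom (limma 3.58.1), other scalings and filters, a replicate block and leaving out libraries. The fits were tested on simulated data.

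The members, lists and tests were chosen with earlier results of these data known. All members are named, and 1 gene of the further lists that the rule below names is not reported here. Of each further list, genes called by edgeR were to be named or, if there were none, for each direction the 2 of lowest unadjusted p-value averaging 10 counts or more, and the 5 genes most like the members in profile. Acat2 and Pmvk were named after their values were seen, as were the genes that overlap or resemble a named gene. Other genes of sterol metabolism were not analysed here. Positions, lengths and overlaps came from GENCODE M39 on GRCm39, which matched 28854 identifiers, and similar transcripts from BLAST 2.17.0 (identity of at least 95% over at least 200 bases). Replicates of a group differed by at least 21.6 chi-square per degree of freedom, more than sampling noise. No per-sample column was left unused.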

Additional observations from a re-analysis of the deposited data

How the results depend on the processing

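Among the members, the count of genes passing the edgeR threshold was 0 under every alternative run, DESeq2 and limma-voom included, and for all genes tested it was 0 in the reported fit, 38 without a filter beyond 1 count, 1 with the replicate block and 526 with DESeq2. The fits that left out 1 library gave 0 to 2 genes, and the fit without both replicate 3 of Treg with WT Tconv and replicate 2 of Treg with HP1a KO Tconv, added after the data had been seen, gave 15. Of the further lists 2 genes (Mvd and Acaca) passed with DESeq2 and 0 in the other fits. Of 120 alternative values for members all but 1 kept their direction, and the exception was Hmgcs1, whose values with 1 library left out ran from -0.000759 to 0.19. The members with an unadjusted p-value under 0.05 numbered 2 to 4 in these fits, in which 9.23% to 18.2% of all genes had one, and the 4 came where libraries were scaled by total counts (15.2%), without robust estimation (14.6%), without replicate 2 with HP1a KO Tconv (16.4%) and without both libraries (18.2%). The groups did not overlap for 4 members under each scaling, where 23% to 23.9% of all genes did not overlap. With 1 library left out they did not overlap for 4 to 6 members, where 30.3% to 36.9% of all genes did not. Without both libraries named above they did not overlap for 6 members (51.1% of all genes).

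Among 405 alternative values for the named genes of the further lists 12 changed sign. Scaling by total counts gave 0.0272 for Ggps1. Leaving out 1 library at a time gave -0.0678 to 0.0575 for Ggps1, -0.284 to 0.0429 for Insig2, -0.00648 to 0.0824 for Mylip, -0.488 to 0.213 for Scarb1 and -2.62 to 0.0627 for Fads2. For Abca1 they gave -0.274 to -0.00501 and for Scd1 -3.01 to -0.267. The LFC also moved by over 1.5 times, with no change of sign, for Msmo1 (0.13 to 0.29), Cyp51 (-0.16 to -0.07), Hsd17b7 (-0.23 to -0.04), Rnf139 (-0.14 to -0.03), Coq2 (0.09 to 0.24), Rabggtb (-0.29 to -0.09), Nr1h2 (-0.08 to -0.02), Gramd1c (-0.21 to -0.06) and Stard3 (0.20 to 0.40) when 1 library was left out. The same held for Nus1 (-0.47 to -0.18) and Nr1h3 (0.18 to 0.65). Leaving out both libraries named above gave -0.101 for Ggps1, 0.0194 for Insig2, 0.0602 for Abca1, 0.289 for Scarb1 and 0.0304 for Scd1. Total counts as scaling moved the median of all genes from -0.01 to 0.03. The sources used here do not say whether replicate numbers pair the libraries. Same-numbered libraries correlated at -0.07, 0.17 and 0.12 in their deviations from the group means. Of the 3 libraries with WT Tconv, 2 did not correlate best with their own number, though replicate 3 missed it only by 0.120 against 0.122. Deviations from the mean of 3 libraries depend on each other, so these correlations cannot decide whether the libraries are paired. With the replicate block the log2 fold changes were 0.30 for Fdps, 0.26 for Fdft1, 0.13 for Srebf2 and -0.29 for Insig1, and no member passed. With 3 libraries a group, differences as small as those of the members are hard to separate from the spread between libraries.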
